A study of Mus musculus with 8 samples.

Results

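The 10 genes described here carry lipid into liver cells or out of them: Cd36, Vldlr and Mfsd2a at the cell surface, the lipase gene Lpl and its inhibitor Angptl4, the assembly genes Mttp and Apob, and the apolipoprotein genes Apoa1, Apoa4 and Apoa5. They were chosen by symbol, as the probes whose RefSeq accession belongs to one of those symbols, and were 10 of 22911 named genes, with 15 of 56605 probes. All 15 probes passed the detection filter. RNA of whole liver was measured on 8 one-colour arrays of mice aged 10 to 11 weeks, with 2 arrays in each of 4 groups: male knockout, male wild type, female knockout and female wild type. The knockout mice are labelled as lacking Bcl6, a transcriptional repressor with zinc fingers, in the liver alone, and the series compares the sexes with and without it. The sources used here do not give the alleles, the strain or the Cre driver. They do not say either if every array holds another animal, and the p-values therefore cover the spread between these arrays and no more.

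The liver takes up fatty acids and the remnants of lipoproteins from plasma, and sends triglyceride out again in very low density lipoprotein (VLDL). In the secretory pathway the protein of Mttp, the microsomal triglyceride transfer protein, loads lipid onto apolipoprotein B. In capillaries, lipoprotein lipase frees fatty acids from the particles, helped or held back by small apolipoproteins and by angiopoietin-like proteins. In rodent liver many metabolic genes are set at different levels in males and females by the temporal pattern of growth hormone, which acts through the factor STAT5.

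Apoa4 was higher in knockout livers of both sexes, 7.29-fold in males and 3.26-fold in females. Mfsd2a was lower in knockout livers of both sexes, 3.60-fold in males and 16.5-fold in females. Cd36 was 5.86-fold higher in knockout males than in wild-type males, while its difference in females did not pass the test. In males 3 of 10 members passed limma's test with Benjamini-Hochberg adjustment over the 26551 genes and unnamed transcripts at an adjusted p under 0.05, against 10.7% of all of them, 2 being higher, against 5.77%, and 1 lower, against 4.93%. In females 2 of 10 passed, against 5.93% of all, 1 being higher, against 3.48%, and 1 lower, against 2.45%. The median difference of the members, knockout minus wild type, was 0.064 on the log2 scale in males, beside -0.036 over all genes tested, and -0.29 in females, beside 0.0012. Levels below are log2 of the processed signal relative to the 75th percentile of each array, and differences are knockout minus wild type unless stated; an error after a level is the SD (n = 2 arrays), and after a difference the SE of the fit.

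**Figure D1:**
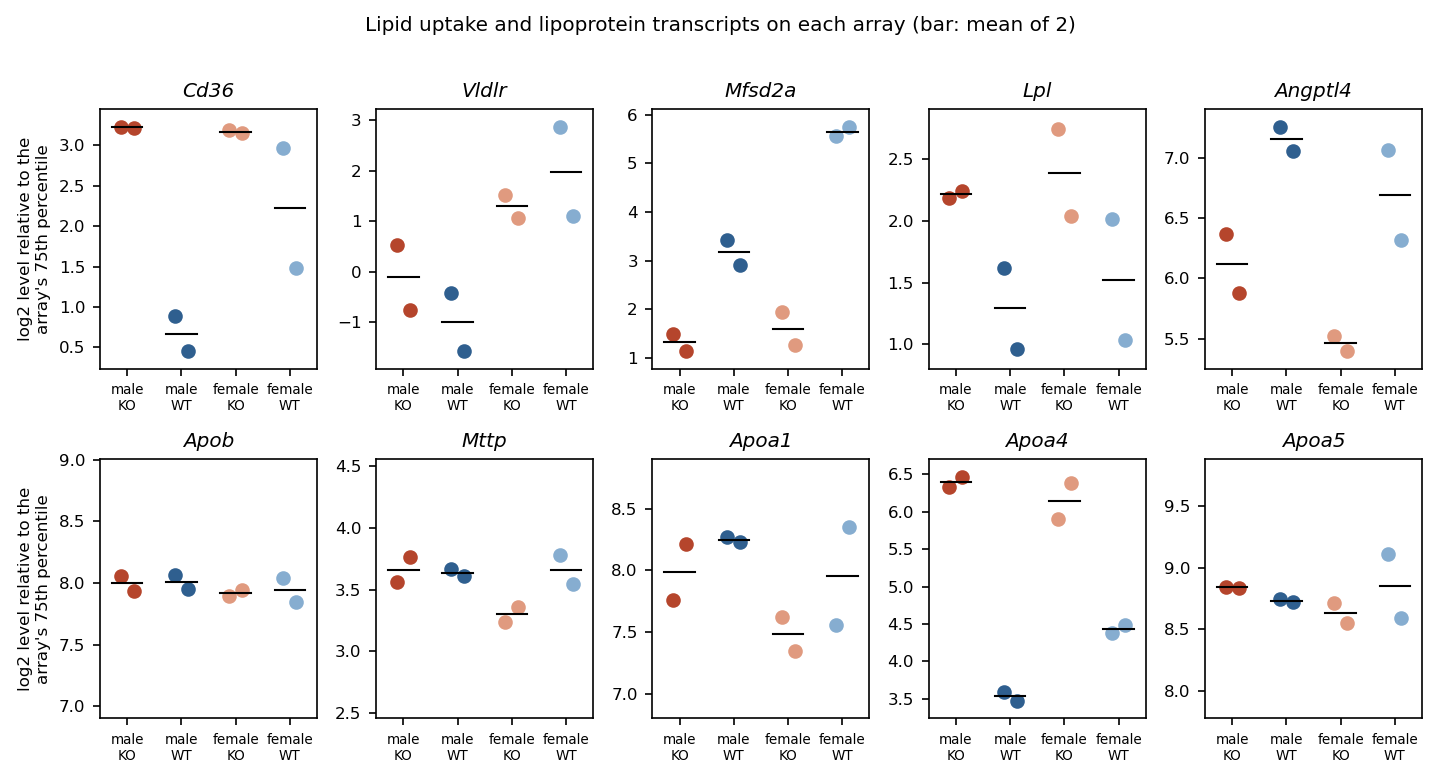
Log2 level of each of the 10 members on each of the 8 arrays, with the knockout group left of the wild-type group within each sex; points are arrays and bars are group means. The knockout and wild-type points of Apoa4 and Mfsd2a lie apart in both sexes, while those of Apob lie on top of each other.

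The 250 bases before the RefSeq start site of the 3 members that passed in at least 1 sex are printed so that their upstream sequence can be read beside their levels. The sequences are from RefSeq on GRCm38.p6, each 5′ to 3′ on the strand of its gene: Apoa4 at chr9:46240594-46240843 on the plus strand, Cd36 at chr5:17835897-17836146 on the minus strand and Mfsd2a at chr4:122961189-122961438 on the minus strand. Capitals mark AGGTCA on either strand, 1 unit of the repeats that nuclear receptors read.
Apoa4: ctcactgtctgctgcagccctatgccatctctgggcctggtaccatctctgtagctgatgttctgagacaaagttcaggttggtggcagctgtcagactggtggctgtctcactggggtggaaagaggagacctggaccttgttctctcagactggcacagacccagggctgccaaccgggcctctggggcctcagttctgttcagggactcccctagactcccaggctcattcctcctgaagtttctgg
Cd36: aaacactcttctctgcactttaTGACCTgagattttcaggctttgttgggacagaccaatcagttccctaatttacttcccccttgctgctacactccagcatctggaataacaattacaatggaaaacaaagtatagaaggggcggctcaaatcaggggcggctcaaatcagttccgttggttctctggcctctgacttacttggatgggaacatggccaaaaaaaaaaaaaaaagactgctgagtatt
Mfsd2a: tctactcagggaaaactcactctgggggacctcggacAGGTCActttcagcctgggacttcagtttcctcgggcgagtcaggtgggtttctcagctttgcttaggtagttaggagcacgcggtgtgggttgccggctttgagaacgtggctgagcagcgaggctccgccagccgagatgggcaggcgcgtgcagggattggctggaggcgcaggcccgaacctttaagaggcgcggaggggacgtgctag
The motifs searched numbered 3, read on both strands, and the third is part of the second. TTCNNNGAA, the letters read by STAT factors and also held in the Bcl6 motif, was in 7.02% of 32851 promoter windows of 27025 genes and in 0 of the 10 windows of members. AGGTCANAGGTCA, the direct repeat read by PPAR and RXR, was in 0.0335% of all windows and in 0 of the 10. AGGTCA alone was in 14% of all windows, and among members it was found in that of Cd36, in reverse as TGACCT, its first base at position -228, and in that of Mfsd2a at position -213. The Apoa4 window held none of the 3 motifs, and its GC content was 57.6%, beside 43.2% for Cd36 and 61.6% for Mfsd2a. These are matches of letters within 250 bases and say nothing of binding. Windows were found for 8 of the 10 members; Lpl and Angptl4 had none in the table used.

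Among the uptake genes, Cd36 encodes the fatty acid translocase, a membrane glycoprotein that takes up long-chain fatty acids and is higher in female than in male liver in mice. Its level was 3.23 and 3.21 in male knockout arrays, against 0.89 and 0.45 in male wild-type arrays. In females it was 3.19 and 3.15 in knockout arrays, against 2.97 and 1.48 in wild-type arrays. All 4 knockout arrays lay within a narrow band at the top, the male wild-type arrays lay lowest, and the female wild-type arrays lay between, far apart from each other. The difference was 2.55 ± 0.45 in males, with an adjusted p of 0.0223 in limma. In females it was 0.95 ± 0.45, with an adjusted p of 0.258 in limma and a 95% interval from -0.16 to 2.05. The male call was lost when any 1 of the 4 male arrays was left out, at adjusted p-values up to 0.108 with the difference between 2.33 and 2.77, and without the detection filter at 0.0605. The female difference was 1.69 without the first female wild-type array (adjusted p of 0.0197 in limma) and 0.20 without the second (0.607).

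Mfsd2a encodes a sodium-dependent transporter of lysophosphatidylcholine that carries docosahexaenoic acid into cells. Its level was 1.50 and 1.14 in male knockout arrays, against 3.42 and 2.91 in male wild-type arrays. In females it was 1.94 and 1.26 in knockout arrays, against 5.55 and 5.75 in wild-type arrays. The knockout arrays of both sexes lay below every wild-type array, and the female wild-type arrays lay above all others. The difference was -1.85 ± 0.28 in males and -4.05 ± 0.28 in females, with adjusted p-values of 0.0142 and 0.00154 in limma. The male call was lost without the first male wild-type array (adjusted p of 0.0578), the first male knockout array (0.0548) or the second (0.0878), while the female call was kept under every alternative run.

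Vldlr encodes the VLDL receptor, which binds triglyceride-rich particles and is low in healthy liver. Its level was 0.52 and -0.76 in male knockout arrays, against -0.42 and -1.58 in male wild-type arrays. In females it was 1.52 and 1.07 in knockout arrays, against 2.87 and 1.10 in wild-type arrays. The groups overlapped in both sexes, and arrays of 1 group differed by up to 1.77, a gap that 1.23% of all genes reached in female wild type. The difference was 0.88 ± 0.73 in males and -0.69 ± 0.73 in females, with limma intervals from -0.89 to 2.66 and from -2.46 to 1.09. Its other probe gave 0.73 in males and -0.82 in females, and neither probe passed.

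Lpl encodes lipoprotein lipase, which in adult liver is made at a low level. The level was 2.19 and 2.24 in male knockout arrays, against 1.62 and 0.97 in male wild-type arrays. Female arrays read 2.74 and 2.04 in knockout arrays, against 2.02 and 1.04 in wild-type arrays. Knockout arrays lay above wild-type arrays within each sex, in females by a margin smaller than the gap within either group. The difference was 0.92 ± 0.40 in males and 0.87 ± 0.40 in females, which did not pass in limma (adjusted p of 0.207 and 0.248). With 1 array left out the difference ran from 0.59, without the second wild-type array, to 1.25 in males, and in females from 0.38, without the second wild-type array, to 1.35, without the first. The other 2 probes gave 0.90 and 0.78 in males, and 0.77 and 0.63 in females.

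Angptl4 encodes angiopoietin-like 4, a secreted inhibitor of lipoprotein lipase and a target of PPAR factors. It had a level of 6.37 and 5.87 in male knockout arrays, against 7.26 and 7.06 in male wild-type arrays. Female levels were 5.52 and 5.40 in knockout arrays, against 7.07 and 6.32 in wild-type arrays. Knockout arrays lay below wild-type arrays in each sex. The difference was -1.04 ± 0.28 in males, 2.05-fold, and -1.23 ± 0.28 in females, 2.35-fold. Neither passed in limma, with adjusted p-values of 0.0714 and 0.0597 and intervals from -1.72 to -0.36 and from -1.92 to -0.55. Other settings put both past the threshold, as given under the dependence on processing.

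**Figure D2:**
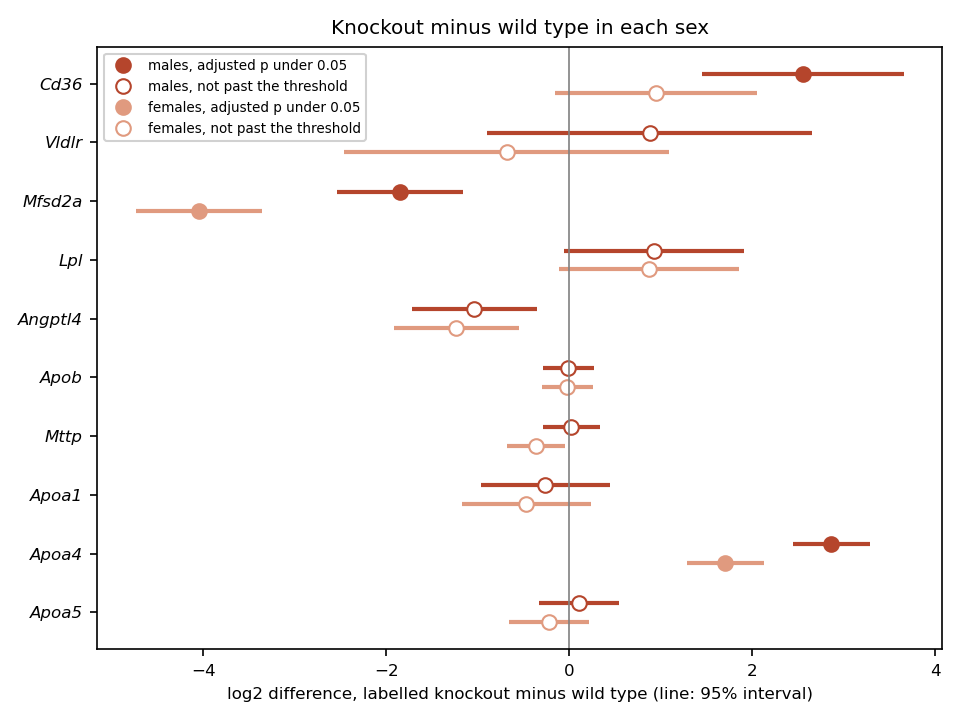
Difference of each member, knockout minus wild type on the log2 scale, in males and in females; points are limma estimates and bars are 95% intervals, not adjusted for the number of genes. The intervals of Apoa4, Mfsd2a and Angptl4 exclude 0 in both sexes, though Angptl4 did not pass after adjustment. That of Cd36 excludes 0 in males and that of Mttp in females, and those of Apob lie on either side of 0 in both.

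Of the assembly genes, neither passed in either sex. Apob, the structural protein of VLDL, had a level of 8.06 and 7.94 in male knockout arrays, against 8.06 and 7.95 in male wild-type arrays. Female levels were 7.90 and 7.94 in knockout arrays, against 8.04 and 7.84 in wild-type arrays. The difference was -0.010 ± 0.12 in males and -0.023 ± 0.12 in females, with limma intervals from -0.29 to 0.27 and from -0.30 to 0.26, and the other probe gave -0.020 and 0.051. The sign of so small a difference was not stable across settings.

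Mttp had a level of 3.56 and 3.76 in male knockout arrays, against 3.66 and 3.61 in male wild-type arrays. Female levels were 3.24 and 3.36 in knockout arrays, against 3.78 and 3.55 in wild-type arrays. The male groups overlapped and the female groups did not. The difference was 0.023 ± 0.13 in males and -0.36 ± 0.13 in females, and neither passed in limma (adjusted p of 0.929 and 0.154). The unadjusted 95% intervals ran from -0.29 to 0.34 in males and from -0.68 to -0.049 in females.

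Of the apolipoproteins, Apoa4 is a component of chylomicrons and high density lipoprotein that the intestine makes in quantity and rodent liver also makes. Its level was 6.33 and 6.47 in male knockout arrays, against 3.59 and 3.47 in male wild-type arrays. The female arrays read 5.90 and 6.38 in knockout arrays, against 4.38 and 4.49 in wild-type arrays. The order of the groups was male and female knockout at the top, overlapping each other, then female wild type, then male wild type. The difference was 2.86 ± 0.17 in males and 1.71 ± 0.17 in females, with adjusted p-values of 0.00062 and 0.00627 in limma. The male call was kept under every alternative run, and the female call was lost in 1, the fit on the female arrays alone (adjusted p of 0.0573).

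Apoa1 is the main protein of high density lipoprotein and Apoa5 raises the action of lipoprotein lipase. Apoa1 had a level of 7.76 and 8.21 in male knockout arrays, against 8.27 and 8.22 in male wild-type arrays, and 7.62 and 7.35 in female knockout arrays, against 7.55 and 8.35 in female wild-type arrays. Its difference was -0.26 ± 0.29 in males and -0.47 ± 0.29 in females (adjusted p of 0.608 and 0.361 in limma). The male groups were separated by a margin of about the second decimal, and the female groups overlapped. Apoa5 had a level of 8.85 and 8.83 in male knockout arrays, against 8.75 and 8.72 in male wild-type arrays, and 8.71 and 8.55 in female knockout arrays, against 9.11 and 8.59 in female wild-type arrays. Its difference was 0.11 ± 0.18 in males and -0.22 ± 0.18 in females (adjusted p of 0.750 and 0.484 in limma). Over all members, the arrays did not overlap between genotypes for 7 of 10 in males, against 62% of all genes, and for 6 of 10 in females, against 55.5%.

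The 3 apolipoprotein members lie next to each other on chromosome 9, so their neighbours were read in the RefSeq gene order. Around them stand Pafah1b2 and Sik3 on one side of Apoa1, Apoc3 between Apoa1 and Apoa4, and Zpr1 and Bud13 after Apoa5. Apoa4 was the only gene of that run to pass with a rise. Apoc3, an inhibitor of lipoprotein clearance, was higher by 0.29 in males and 0.25 in females (adjusted p of 0.121 and 0.188 in limma). Its unadjusted 95% intervals ran from 0.053 to 0.53 and from 0.0084 to 0.49. Sik3, a kinase gene, fell by 0.64 in knockout males and 0.87 in knockout females (adjusted p of 0.0357 and 0.0215 in limma), and Bud13, a splicing factor gene, fell by 0.56 and 1.04 (0.0325 and 0.00749). Leaving out any 1 knockout array ended both Sik3 calls, as did the second male wild-type array for the male call and the second female wild-type array for the female call; the male Bud13 call was lost without any 1 male array or female knockout array. Without the detection filter both Sik3 calls and the male Bud13 call were lost, and with only the groups compared in the fit both Sik3 calls and the female Bud13 call (adjusted p of 0.0711). Male Sik3 was also lost with median scaling, and male Bud13 with normexp background and with the replicate block.

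On chromosome 7 a second apolipoprotein cluster holds Apoc2, Apoc4, Apoc1 and Apoe. Apoc2, the cofactor that lipoprotein lipase needs, rose by 1.70 ± 0.13 in knockout males and 1.26 ± 0.13 in knockout females (adjusted p of 0.00124 and 0.00586 in limma). Its neighbours Apoc4, Apoc1 and Apoe differed by 0.22, 0.036 and 0.0089 in males and by 0.037, 0.13 and 0.061 in females, and none passed. Tomm40, beside Apoe and coding for a mitochondrial import channel, fell by 0.53 in knockout males (adjusted p of 0.0284 in limma), a call lost without any 1 male array or female knockout array, without the detection filter and with only the groups compared.

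**Figure D3:**
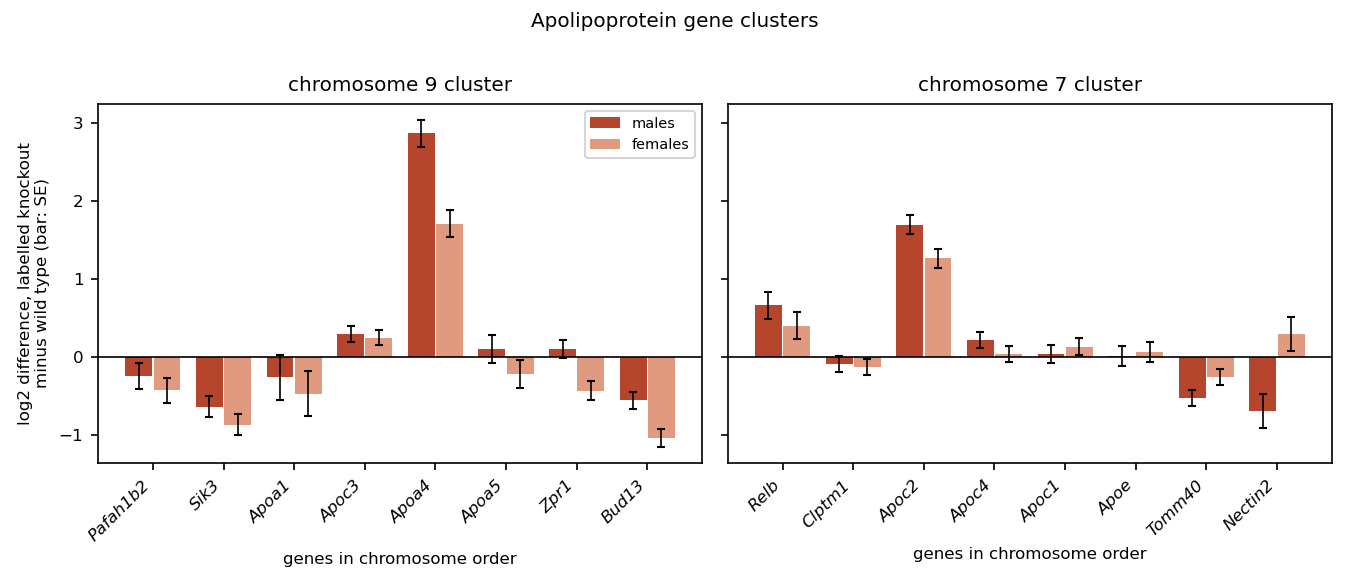
Difference of each gene, knockout minus wild type on the log2 scale, along the apolipoprotein clusters of chromosomes 9 and 7 in RefSeq gene order, not to scale in distance; bars start at 0, and the error bars are the SE of the fit. Apoa4 and Apoc2 stand above their neighbours in both sexes.

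Sex differences were read next, male minus female. In wild type 1 of 10 members passed, against 0.975% of all genes, and it was lower in males, against 0.362%. Mfsd2a was 5.59-fold lower in wild-type males than in wild-type females, a difference of -2.48 ± 0.28 with an adjusted p of 0.0232 in limma. That call was lost in 6 of 8 fits that left out an array, without the detection filter (adjusted p of 0.0709) and with the wild-type groups fitted alone (0.106). Vldlr was 7.88-fold lower in wild-type males with no overlap of arrays, but the wide spread left an adjusted p of 0.126 in limma. Apoa4 differed by -0.90 ± 0.17 (0.0825) and Cd36 by -1.55 ± 0.45 (0.171), with no overlap of arrays in either, and the Cd36 difference was -0.81 without the first female wild-type array (0.141) and -2.29 without the second (0.0131). In wild type 4 of 10 members had arrays that did not overlap between the sexes, against 47.8% of all genes. Females filled 1 row of the slide and males the other, and the effects of row and of sex cannot be told apart.

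Between the knockout groups 0 of 10 members passed in limma, against 0.0753% of all genes. The arrays of 6 of 10 members did not overlap between these groups, against 41.3%. The male minus female difference of Mfsd2a was -0.28 with a limma interval from -0.97 to 0.40, and that of Cd36 was 0.051, from -1.05 to 1.15. For Apoa4 it was 0.26 (adjusted p of 0.900) and for Vldlr -1.41 (0.875). An adjusted p above the threshold does not show that the sexes were alike in the knockout groups.

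The test of whether the genotype difference itself differed between sexes was the interaction, the male difference minus the female difference. It passed for 0 of 10 members in limma, against 0.188% of all genes. The estimate was 2.20 ± 0.40 for Mfsd2a (adjusted p of 0.213), 1.16 ± 0.25 for Apoa4 (0.283) and 1.60 ± 0.64 for Cd36 (0.582), which ran from 0.86 to 2.35 with 1 array left out, both ends without a female wild-type array. All 10 estimates were above 0, against 46.6% over all genes, and their median was 0.36, beside -0.023. The members share the same 8 arrays and were chosen with earlier results of these data known, so that count is no test of the set. Some estimates were near 0, such as 0.012 ± 0.16 for Apob. Those of Apob, Lpl, Apoa1 and Angptl4 changed sign in some fits with 1 array left out.

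**Figure D4:**
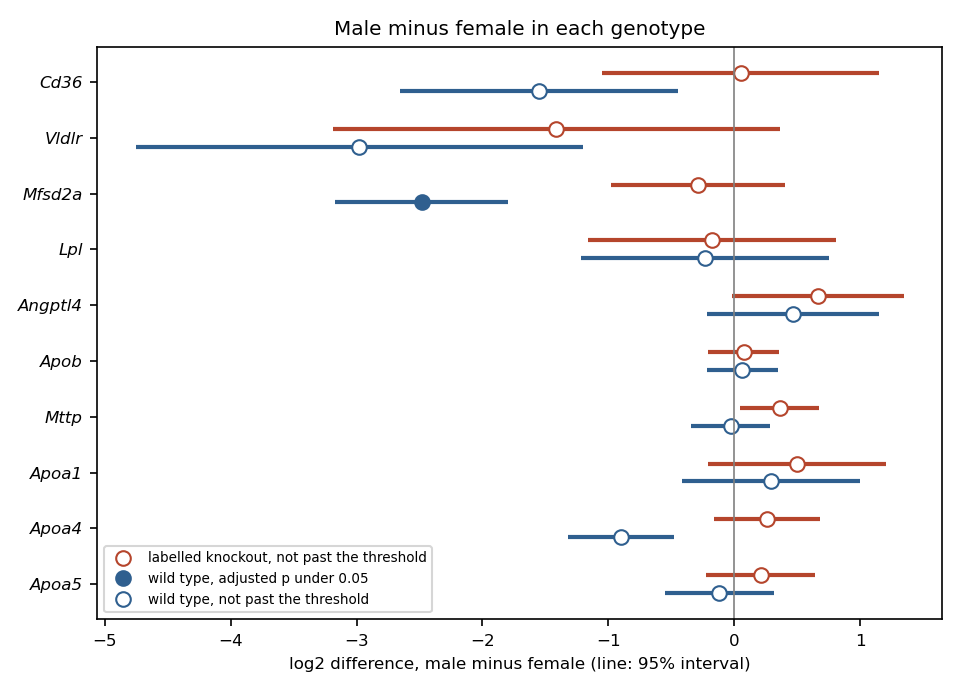
Sex difference of each member, male minus female on the log2 scale, in knockout and in wild-type livers; points are limma estimates, filled where past the threshold, and lines are 95% intervals. For Mfsd2a, Apoa4 and Cd36 the wild-type estimates lie below 0 and the knockout estimates close to it.

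The other genes of lipid transport were read in 6 lists. Of 10 plasma lipases, remodelling enzymes and their controls, 2 rose and 2 fell in knockout males, and 1 fell in knockout females. Over all genes tested 5.77% rose and 4.93% fell in males, and 3.48% rose and 2.45% fell in females, beside which the counts of each list below are to be read. Lipc, the hepatic lipase, fell by 2.66 ± 0.16 in males, 6.31-fold, and by 2.17 ± 0.16 in females, 4.50-fold (adjusted p of 0.00062 and 0.00194 in limma). Lipg, the endothelial lipase, was well above background on no male knockout array and was at least 3.38-fold lower there (adjusted p of 0.0289 in limma); in females it differed by -2.09 (0.0569). Lcat, which esterifies plasma cholesterol, rose by 0.62 in males (0.0266), and Pltp, which moves phospholipid between particles, rose by 1.10 (0.0119), against 0.34 (0.146) and 0.068 (0.824) in females. The interaction for Pltp was 1.03 with an adjusted p of 0.295 in limma. Of 10 other apolipoproteins, Apoc2 was the one that passed.

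Of 19 lipoprotein receptors and controls, 16 were tested, and 2 rose in males and 1 in females. Sdc1, a heparan sulphate proteoglycan that clears remnants, rose by 1.48 in males and 1.37 in females (adjusted p of 0.00117 and 0.00234 in limma). Stab2, a scavenger receptor of sinusoidal endothelium, rose by 0.55 in males (0.0291), against a difference of 0.38 in females (0.0945). Of 23 genes of fatty acid uptake and binding, 19 were tested, and 3 fell in males and 2 in females. Slc27a2, a fatty acid transport protein and acyl-CoA synthetase, fell by 0.79 in males and 0.65 in females (0.0102 and 0.0263). Acbd5, a peroxisomal acyl-CoA binding protein, fell by 0.80 and 0.75 (0.0201 and 0.0357), and Scp2, a sterol carrier, fell by 0.65 in males (0.0189), against a difference of -0.27 in females (0.197).

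Of 22 symbols listed for VLDL assembly and secretion, 21 were tested, as Ctage5 had no named probe. Among them 2 rose and 1 fell in males, and 1 rose in females. Tm6sf2, which helps lipidate VLDL, rose by 1.10 in males (adjusted p of 0.00556 in limma), against 0.58 in females (0.0557). Abcg1, a sterol exporter, rose by 0.76 and 0.59 (0.0135 and 0.0393), and Mia2, which acts in export from the endoplasmic reticulum, fell by 0.51 in males (0.0321), against a difference of -0.27 in females (0.170). Of 11 genes of lysophospholipid and choline handling, 10 were tested, and 0 passed in limma in either sex. With any 1 array left out, the calls of Lipc, Sdc1 and Apoc2 were kept in both sexes and that of Tm6sf2 in males. In males those of Lipg, Lcat, Scp2 and Acbd5 were lost without any 1 male array, those of Stab2 and Mia2 also without either female knockout array, that of Pltp without either male wild-type array, that of Slc27a2 without either male knockout array or the second wild-type array, and that of Abcg1 without either male knockout array or the first wild-type array. In females those of Slc27a2 and Acbd5 were lost without any 1 array but the second female wild-type array, and that of Abcg1 without any 1 of the 8. Of the other settings, dropping the detection filter ended the male calls of Lipg, Lcat, Scp2, Acbd5, Stab2, Mia2 and Abcg1 and the female calls of Slc27a2, Acbd5 and Abcg1. Fitting only the groups compared ended the male calls of Pltp (adjusted p of 0.0520 in limma), Stab2 and Mia2 and the female calls of Apoc2 (0.0612), Slc27a2, Acbd5 and Abcg1. The replicate block ended those of Mia2 in males and of Acbd5 and Abcg1 in females, and median scaling that of Abcg1 in females.

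**Figure D5:**
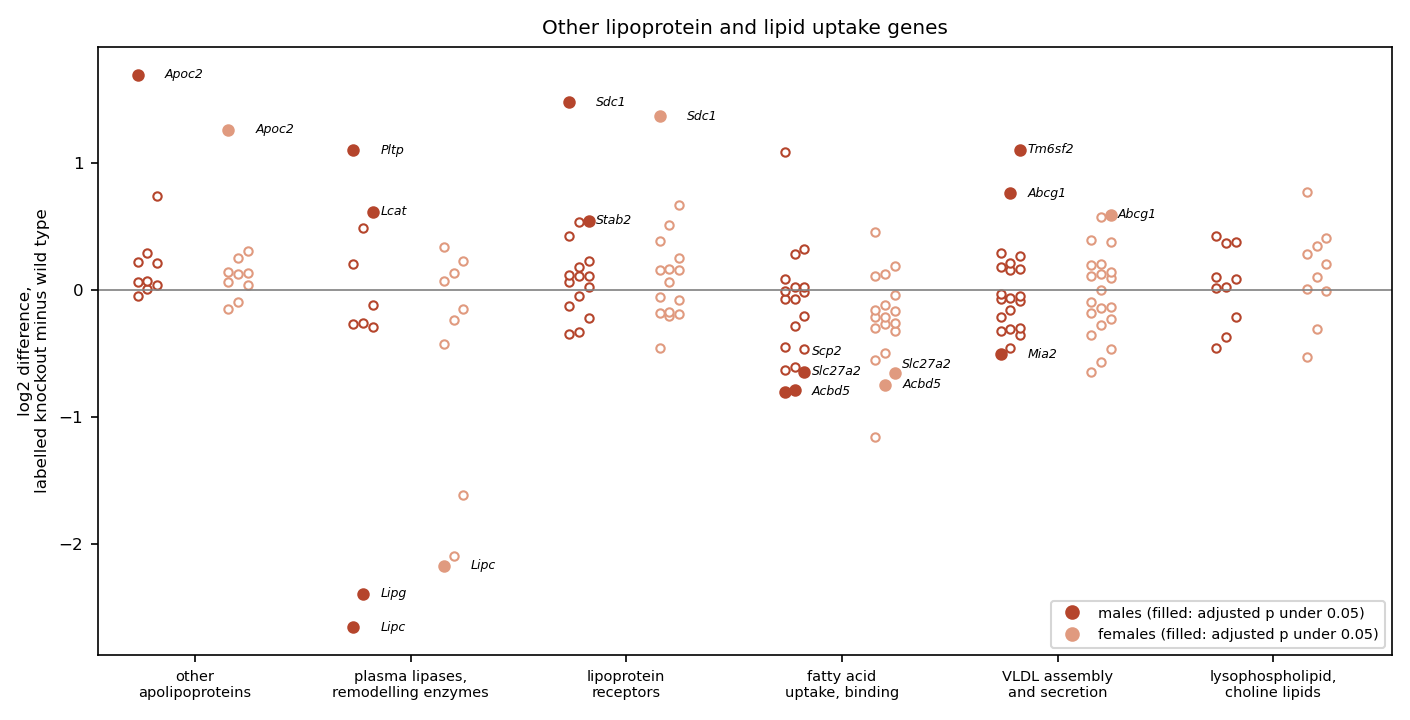
Difference of each tested gene of the 6 lipid transport lists, knockout minus wild type on the log2 scale, in males and in females; filled points passed the test. Lipc lies lowest among the points that passed in both sexes, and Apoc2 and Sdc1 lie highest among them.

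For the 3 members that passed in at least 1 sex, the genes with the most similar pattern over the 8 arrays were named among 2942 genes that were well above background on all 8 and ranged over at least 1 log2 unit. Most like Cd36 were Rdh16 (Pearson r of 0.995 over 8 arrays), Rpph1 (0.985) and Slc16a5 (0.983). Most like Apoa4 were Ly6d (0.997), Mobp (0.995) and Snx12 (0.993), and most like Mfsd2a were Bud13 (0.990), AW549542 (0.981) and Atp1b1 (0.977). The arrays share groups, so a high value can come from a shared order of the 4 groups. For Cd36 the gap within female wild type was shared as well. There the first and second arrays read 2.97 and 1.48 for Cd36 and 4.20 and 3.67 for Rdh16. They read 3.04 and 2.60 for Rpph1, and 2.07 and 1.24 for Slc16a5.

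In bulk tissue, fewer cells of a type and less RNA per cell cannot be told apart, so markers of other cells are given. Of 10 hepatocyte markers 9 were tested, as Tf had no named probe, and all 9 were well above background on every array. Their summed levels, in multiples of the array's 75th percentile, were 6659 to 6896 in male knockout and 6451 to 6752 in male wild type. In females they were 6152 to 6922 in knockout and 6033 to 6256 in wild type. Ttr fell by 0.50 in males and 0.56 in females (adjusted p of 0.0312 and 0.0331 in limma). Endothelial markers, 11 of 11 tested, summed to 129 to 138 in male knockout, against 90.5 to 90.8 in male wild type, and to 127 to 131 in female knockout, against 108 to 115 in female wild type; 3 rose in males and 1 in females. Stellate markers, 9 of 9 tested, summed to 30.7 to 31.2 in male knockout, against 22.8 to 23.8 in male wild type. In females they summed to 32.1 to 33.8 in knockout, against 26.5 to 28.8 in wild type. In males 4 rose, Pdgfrb, Col1a1, Col1a2 and Col3a1. Lrat went the other way, falling by 1.25 in females (adjusted p of 0.0407 in limma) and differing by -1.01 in males (0.0526). Macrophage markers, 12 of 12 tested, summed to 143 to 176 in male knockout, against 131 to 137 in male wild type, and to 153 to 171 in female knockout, against 147 to 149 in female wild type, and 1 rose in each sex. The part of these cells in the differences of Cd36 and Lpl, which they also express, was not tested. Of 9 enterocyte markers 2 were tested, Lct, Alpi, Cdx1, Cdx2 and Slc5a1 were well above background on 0 arrays, and the sums were 82.0 to 101 in male knockout, against 76.6 to 90.3 in male wild type, and 68.2 to 69.1 in female knockout, against 70.7 to 83.7 in female wild type. Of 9 adipocyte markers 5 were tested and Adipoq was well above background on 0 arrays. The sums were 6.08 to 6.20 in male knockout, against 8.13 to 8.16 in male wild type. In females they were 5.47 to 6.15 in knockout, against 5.91 to 6.85 in wild type. Adrb3 fell in both sexes. In males the lower sum came from Adrb3, whose mean level was -3.66 in knockout, against 1.44 in wild type. Fabp4, the brightest of the 5, differed by 0.32 in males and 0.12 in females, and Lep by 0.085 and 0.22. Cidec differed by -0.44 in males and -0.55 in females, and Retn by -0.57 and 0.36, and none of these passed. Of 7 pancreatic acinar markers 4 were tested, and Cpa1, Pnlip and Prss2 were well above background on 0 arrays. The sums were 24.4 to 27.8 in male knockout, against 43.6 to 62.5 in male wild type. In females they were 24.3 to 25.3 in knockout, against 25.9 to 28.3 in wild type. The lower male sum came from Cela1, which fell by 1.47 in males (adjusted p of 0.0144 in limma). In males Amy2a5 differed by 0.86, Cela2a by 0.28 and Ctrb1 by -0.29, and none of these passed. Of 8 skeletal muscle markers 2 were tested, Tnnt3 and Mylpf, summing to 0.53 to 1.13 in male knockout, against 0.45 to 0.49 in male wild type, and to 0.58 to 0.63 in female knockout, against 0.48 to 0.49 in female wild type, and 0 passed; muscle also expresses Cd36 and Lpl, and its part was not tested.

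The Bcl6 probe read 4.49 and 4.01 in male knockout arrays, against 3.97 and 2.91 in male wild-type arrays, and 1.62 and 4.41 in female knockout arrays, against 2.95 and 0.86 in female wild-type arrays. Knockout arrays did not read lower (differences of 0.81 ± 1.06 and 1.11 ± 1.06, adjusted p of 0.676 and 0.556 in limma), and the sources used here do not place the probe relative to the deletion; it checks nothing, and every direction above follows the labels. All 8 arrays were on 1 slide with 1 scan time, and 33677 to 36459 spots of each were well above background and 0 saturated; the number of arrays limits the precision.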

How the data were processed

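Total RNA of whole liver was measured on one-colour Agilent arrays, 1 per sample. Agilent Feature Extraction (11.5.1.1) made the deposited intensity values, signals with the background subtracted on each array, per the file headers; the submitters' processing notes name 9.1.3.1. The deposited value table holds log2 values that equalled log2 of the processed signal minus 1 constant per array (6.99 to 7.30) within 0.01 for 100% of probes. Here, log2 of each intensity was taken, and the 75th percentile of the array was set to 0. Control and outlier spots were left out (55 to 139 per array), and spots of a probe were averaged. For the detection filter, some group had to read the probe well above background on its 2 arrays, which left 33580 of 56605 probes. A gene was read by its brightest kept probe, giving 26551 genes and unnamed transcripts; 32994 probes were named through RefSeq (GRCm38.p6). The array's grid is on mm9, so no coordinates of probes are given.

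Group means (4) were fitted with limma 3.58.1 under R 4.3.3, with 4 residual and 2.08 prior degrees of freedom. The Benjamini-Hochberg adjustment ran over all 26551 at a threshold of 0.05. Intervals are unadjusted. An "at least" fold raises values of the lower group to the lowest signal well above background on their array. Python 3.11.15 (pandas 2.3.3, numpy 2.4.6, matplotlib 3.10.9) read files and drew plots. The fit was tested on simulated data. The members and lists were chosen with earlier results of these data known. Named were all members, Bcl6, each list's genes past the threshold (up to 6 per list), and 3 similar genes per member that passed; neighbours of the apolipoprotein genes were added by position. Alternatives changed background correction, scaling, filter, probe choice, groups fitted, prior and replicate block, and left out each array; normexp used median signals.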

Additional observations from a re-analysis of the deposited data

Results flagged for a closer look

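Of 144 genes of the members, pathway lists and marker lists, 5 (3.47%) had male arrays and female arrays that differed by genotype in opposite directions, without overlap, as did 4.02% of all 26499 genes read on every array. The difference between sexes passed limma's interaction test for 0 of the 5, and 0 of the 10 members were among them. For Apoh, a plasma glycoprotein counted with the apolipoproteins, knockout minus wild type was 0.069 in males and -0.15 in females, an interaction of 0.22 (adjusted p of 0.780). For Apobec1, the editor of Apob mRNA, it was -0.090 in males and 0.38 in females, an interaction of -0.47 (0.676). For Spns2, a lipid transporter, it was -0.37 in males and 0.41 in females, an interaction of -0.78 (0.543; unadjusted 0.0341). For the marker genes Tek, of endothelial cells, and Vsig4, of Kupffer cells, it was 0.19 and 0.13 in males and -0.40 and -0.10 in females, interactions of 0.59 (0.351; unadjusted 0.00613) and 0.24 (0.756).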

How the results depend on the processing

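The number of members that passed moved with the setting. In females it was 1 with only the groups compared in the fit, against 2 as reported. Between wild-type sexes it was 2 with normexp background, with a trend and robust prior and with the replicate block, and 0 without the detection filter or with only the groups compared, against 1. With 1 array left out it was 1 to 4 in males, 2 to 3 in females and 0 to 1 between wild-type sexes. Over all genes the male count was 1225 without the filter, against 2841. The female count was 2628 with normexp, 2530 with the trend and robust prior, 522 without the filter and 367 with only the groups compared, against 1574. Between wild-type sexes it was 615, 592, 99 and 43 in the same settings, against 259; between knockout sexes it was 9 with normexp, 1 with detection on all 8 arrays and 11 with only the groups compared, against 20. The interaction count was 16 without the filter, 76 with the trend and robust prior and 25 with the replicate block, against 50. With 1 array left out the counts were 809 to 3178 in males, 404 to 1633 in females, 98 to 493 and 9 to 20 between the sexes, and 0 to 123 for the interaction. The number of genes tested was 45616 without the filter and 22912 with detection on all 8 arrays, against 26551. That number, fewer samples or a changed prior follow from how each setting is built. Otherwise the cause was not tested.

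Angptl4 passed in males with normexp (adjusted p of 0.0392 in limma), the trend and robust prior (0.0457), the replicate block (0.0342) and without either female wild-type array (0.0344 each), and in females with normexp (0.0216), quantile (0.0461) or median scaling (0.0480), detection on all arrays (0.0431), the trend (0.0334), the block (0.0348) and without the second female wild-type array (0.0371). Between wild-type sexes Apoa4 passed with normexp (0.0329) and the trend (0.0317) and Vldlr with the block (0.0409). After the mean of each group was subtracted, deviations of same-numbered arrays correlated between groups at -0.0017 to 0.10 over genes. Values so small neither show nor exclude that replicate numbers pair the samples. With the replicate block 4 members passed in males, 3 in females and 2 between wild-type sexes.

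Of 890 recomputed values 822 kept their side and direction, 17 lost a call, 17 gained one and 34 reversed. None of the reversed values passed in either fit. The values cover 50 results of members, most of which were not calls as reported. Apob reversed to 0.0039 with normexp and 0.060 with quantile scaling in males, to -0.030 and -0.039 between wild-type sexes, to 0.014 with the mean of probes and 0.051 with the other probe in females, and to -0.029 and -0.071 for the interaction. With 1 array left out, Vldlr ranged from 0.24 to 1.52 in males, Apoa1 from -0.49 to -0.037 in males and -0.87 to -0.071 in females, and Angptl4 from -1.29 to -0.79 in males and -1.61 to -0.86 in females; the estimates that reversed ranged as follows. For Apob the range was -0.070 to 0.050 in males, -0.12 to 0.077 in females, -0.036 to 0.16 between wild-type sexes, -0.088 to 0.11 for the interaction. For Mttp the range was -0.078 to 0.12 in males, -0.14 to 0.088 between wild-type sexes. For Vldlr the range was -1.57 to 0.20 in females. For Apoa5 the range was -0.48 to 0.038 in females, -0.38 to 0.14 between wild-type sexes. For Lpl the range was -0.72 to 0.26 between wild-type sexes, -0.53 to 0.18 between knockout sexes, -0.43 to 0.55 for the interaction. For Apoa1 the range was -0.11 to 0.69 between wild-type sexes, -0.19 to 0.61 for the interaction. For Mfsd2a the range was -0.62 to 0.054 between knockout sexes. For Angptl4 the range was -0.18 to 0.57 for the interaction.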

Other observations

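In female wild type the gap between arrays was wide for some members and not for others. The gap between the 2 arrays was 1.77 for Vldlr, which 1.23% of genes reached, 1.48 for Cd36 (1.87%) and 0.98 for Lpl (4.96%), beside a median gap of 0.207 over all genes. It was 0.799 for Apoa1 (7.62%), 0.747 for Angptl4 (8.65%), 0.518 for Apoa5 (17.0%) and 0.228 for Mttp (46.4%). For Apob it was 0.200, for Mfsd2a 0.197 and for Apoa4 0.107, all below the median. The first female wild-type array was the higher for Vldlr, Cd36, Lpl, Angptl4, Apoa5, Mttp and Apob, and the second for Apoa1, Mfsd2a and Apoa4. In male arrays the gap of Vldlr was 1.28 in knockout and 1.16 in wild type, which 1.30% and 2.60% of genes reached.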
